A study of Mus musculus with 6 samples.

Results

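Serbp1 encodes an RNA-binding protein rich in arginine and glycine repeats that associates with mRNAs and with ribosomes. STRAP is a WD-repeat protein that assembles with the SMN complex, which builds spliceosomal snRNPs. The Serbp1 peaks described here are all deposited peaks that overlapped the Serbp1 gene (chr6:67238176-67297736, plus strand, GRCm38) by at least 1 bp, which came to 20 of the 10748 peaks in the 6 libraries. The gene was chosen by its measured peaks and tags in these same libraries, so its values are a description and carry no test.

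STRAP eCLIP-seq was carried out on pools of 7 wild type C57BL/6 embryos, labelled E9.5 (a legend of the study gives a slightly earlier stage), and on 9-day-old wild type C57BL/6 EBs, which are aggregates of embryonic stem cells grown first in ES medium lacking LIF and later in N2B27 with bFGF. In eCLIP, RNA is crosslinked to protein by UV light, an antibody against the protein retrieves it, and the RNA attached to it is sequenced. Each tissue had 2 eCLIP libraries, given here as eCLIP-1 and eCLIP-2, and 1 input. By the study's methods the 2 eCLIP libraries of a tissue came from independent embryo pools or EBs, and whole embryos and EBs differ in cell types as well as in origin.

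The eCLIP libraries held 136935 and 185125 tags in embryos and 165566 and 228422 tags in EBs after duplicates were removed, whereas the inputs held 6289516 tags (embryo) and 6825190 tags (EB). All 5 globin genes of the erythroid marker list, Hba-a1, Hba-a2, Hba-x, Hbb-bh1 and Hbb-y, had a peak in embryo eCLIP-1 and 3 of them in embryo eCLIP-2, against 0 in both EB eCLIP libraries. Of the 5 pluripotency markers, 0 had a peak in the embryo eCLIP libraries and 4, Dppa5a, Nanog, Pou5f1 and Tdgf1, had a peak in each EB eCLIP library. Of the 6 neural progenitor markers, 3 had a peak in embryo eCLIP-1 (Mdk, Nes and Sox11) and 2 in embryo eCLIP-2 (Mdk and Sox11). In each EB eCLIP library 2 had one, Mdk and Sox2. Of all these markers, the embryo input had a peak on 0, and the EB input had one on Hba-x (26 tags) and one on Sox11 (36 tags). Over all genes, 1006 and 877 had a peak in the embryo eCLIP libraries, against 938 and 1337 in the EB eCLIP libraries. Of 21924 protein-coding genes, 10.0% had a peak in any eCLIP library. EB eCLIP-2 stood apart in its calling, with a fragment size of 76 in the header against 200 in the other 5 libraries.

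Serbp1 has 16 annotated transcripts in Gencode M21, 6 of them in the basic set, and exons are numbered here on Serbp1-201, which has 8. The coding sequence begins in exon 1 and ends in exon 8, and its stop codon is followed by 3′ UTRs that differ greatly in length between transcripts. The peaks merged into 7 regions, and the sequences below show some of the exons under peaks and the start and stop codons. A summit is the base with the highest pileup in a peak, and its position is given as deposited unless stated otherwise. The first set of sequences is exons 2, 6 and 7, which lay under peaks in most eCLIP libraries. Capitals mark every match to GANGAN, where N stands for A or G, and to the hexamer GCAGCA (GRCm38, plus strand, 5′ to 3′).
exon 2 (chr6:67271198-67271348): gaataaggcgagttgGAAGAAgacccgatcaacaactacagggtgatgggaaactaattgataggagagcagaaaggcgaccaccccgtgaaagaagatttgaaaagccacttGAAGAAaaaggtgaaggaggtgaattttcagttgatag
exon 6 (chr6:67277761-67277938): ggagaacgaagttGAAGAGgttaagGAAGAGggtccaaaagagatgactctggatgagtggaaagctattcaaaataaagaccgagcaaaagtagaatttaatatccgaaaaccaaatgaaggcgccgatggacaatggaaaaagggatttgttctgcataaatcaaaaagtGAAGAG
exon 7 (chr6:67281648-67281821): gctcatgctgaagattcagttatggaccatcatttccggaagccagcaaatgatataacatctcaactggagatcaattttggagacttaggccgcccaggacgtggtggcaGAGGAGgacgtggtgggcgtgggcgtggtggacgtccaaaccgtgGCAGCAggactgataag

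The ends of the reading frame lay under peaks as well, and each is shown in a window of 30 nt with the codon in capitals.
start codon (chr6:67267085-67267114): cgagccaccatcATGcctgggcacctacag
stop codon (chr6:67283933-67283962): ccagaggccttcccagctctggccTAActg

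STRAP eCLIP peaks on Serbp1 lay on its coding exons. Of the 20 summits, 19 were in a coding exon and 1, in exon 8 of EB eCLIP-2, was in the 3′ UTR. Classed instead by the feature under most of their bases, mainly coding peaks held 27.4% of the Serbp1 tags in embryos and 92.6% in EBs. Most embryo peaks held more intron than coding bases. On exon 2, coding bases made up 44.7% and 51.2% of the embryo peaks, 53.4% of the EB eCLIP-1 peak and 77.4% of the EB eCLIP-2 peak. EB eCLIP-2 was called with a fragment size of 76 against 200, and the part of this in the classes was not tested. The embryo libraries, eCLIP-1 and eCLIP-2, had 6 and 5 peaks, against 2 and 7 in the EB libraries. Both inputs had 0 peaks over the gene, although they were sequenced far more deeply. A region without a called peak may still hold tags, since the deposited lists give called peaks alone. The nearest deposited peak outside the gene was at least 340975 bp away in any library.

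**Figure D1:**
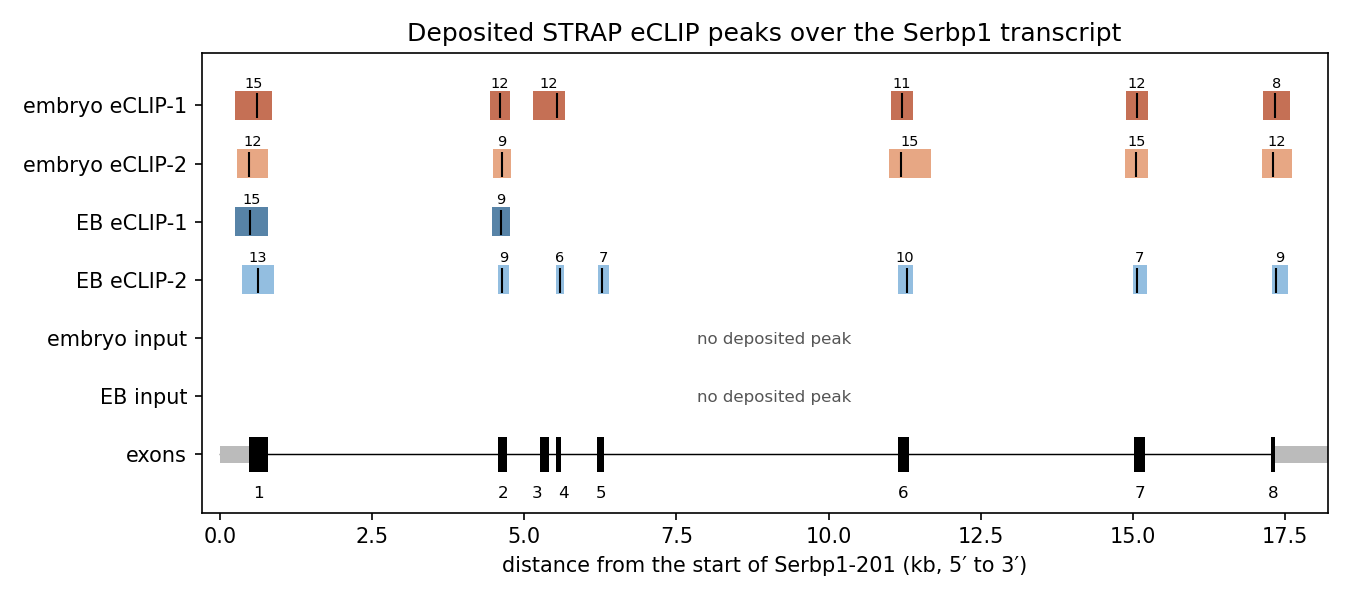
Deposited peaks over Serbp1 by library (rows), against the distance in kb from the start of Serbp1-201; the plot ends within the long last exon. Boxes are peaks, vertical ticks their summits and numbers their tags; in the exon row, black is coding and grey untranslated. Embryo eCLIP-1, embryo eCLIP-2 and EB eCLIP-2 held peaks on exons 1, 2, 6, 7 and the start of exon 8, EB eCLIP-1 held peaks on exons 1 and 2, and the inputs held 0.

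Exon 1 and exon 2 held a peak in every eCLIP library. On exon 1, which holds the start codon, the tag counts were 15 and 12 in the embryo libraries, against 15 and 13 in the EB libraries. In shares of all library tags these were 110 and 64.8 tags per 1000000 library tags (RPM) in embryos, against 90.6 and 56.9 RPM in EBs. The tissues overlapped here, with a ratio of the means of 1.18. The summit in embryo eCLIP-2 was at 67267097, the first base of the start codon, and that in EB eCLIP-1 was at 67267122, while embryo eCLIP-1 and EB eCLIP-2 had theirs further into the coding sequence, at 67267235 and 67267254.

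Exon 2 held 12 and 9 tags in the embryo libraries, against 9 and 9 in the EB libraries. The shares were 87.6 and 48.6 RPM in embryos, against 54.4 and 39.4 RPM in EBs. The tissues overlapped again, with a ratio of the means of 1.45. The summits as deposited were at nt 25 and nt 60 in embryos, against nt 45 and nt 63 in EBs, of an exon of 151 nt. Moved by 62 nt toward the 3′ end in the libraries called with the larger fragment size, they were at nt 87 and nt 122 in embryos, against nt 107 and nt 63 in EBs.

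The short exons 3, 4 and 5 lay under peaks in only some libraries. Embryo eCLIP-1 had 1 wide peak of 12 tags over exons 3 and 4, with its summit in exon 4, whereas EB eCLIP-2 had a peak of 6 tags on exon 4 alone. EB eCLIP-2 was the only library with a peak on exon 5, of 7 tags. In shares of library tags, the peak over exons 3 and 4 was at 87.6 RPM in embryo eCLIP-1, against 26.3 RPM in EB eCLIP-2, and that on exon 5 was at 30.6 RPM in EB eCLIP-2. Exon 3 held no summit in any library.

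Exons 6, 7 and 8 held peaks in both embryo libraries and in EB eCLIP-2, but not in EB eCLIP-1. Exon 6 held 11 and 15 tags in the embryo libraries, against 10 in EB eCLIP-2, or 80.3 and 81.0 RPM in embryos against 43.8 RPM in that EB library. Exon 7, which codes for a run of arginine and glycine repeats, held 12 and 15 tags in the embryo libraries, against 7 in EB eCLIP-2. These were 87.6 and 81.0 RPM in embryos, against 30.6 RPM in EB eCLIP-2.

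Exon 8, with the stop codon and the 3′ UTR, held 8 and 12 tags in the embryo libraries, against 9 in EB eCLIP-2. Its shares were 58.4 and 64.8 RPM in embryos, against 39.4 RPM in EB eCLIP-2. On all of exons 6, 7 and 8 both embryo libraries were above EB eCLIP-2, by 1.84, 2.75 and 1.56 times in the mean. On each of these exons the 95% exact intervals for counting error of both embryo libraries overlapped that of EB eCLIP-2. On exon 7 they were 45.3 to 153 and 45.4 to 134 RPM in embryos, against 12.3 to 63.1 RPM in EB eCLIP-2. With EB eCLIP-1 uncalled on these exons, the tissue ratio has no second EB value there.

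**Figure D2:**
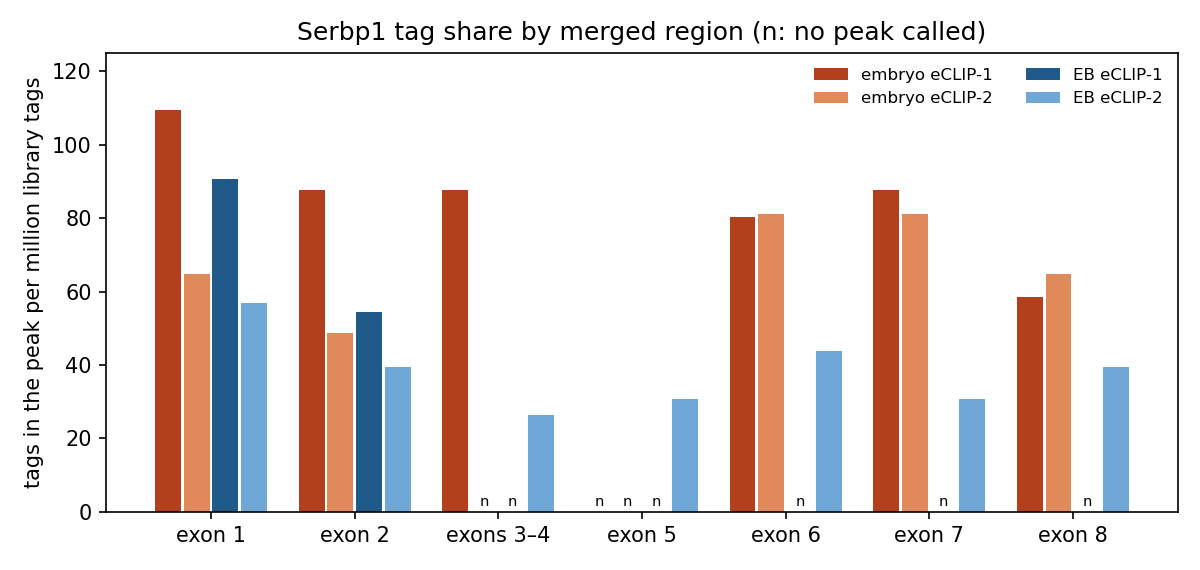
Tags in each merged region in RPM (bars), by exon and eCLIP library; n marks a region with no called peak. The 4 libraries overlap by tissue on exons 1 and 2, and embryo values from 58.4 to 87.6 RPM on exons 6 to 8 are above the 30.6 to 43.8 RPM of EB eCLIP-2.

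The share of the Serbp1 tags that lay on exon 1 was higher in EB eCLIP-1 than in the other eCLIP libraries. Exon 1 took 21.4% and 19.0% of the Serbp1 tags in the embryo libraries, against 62.5% and 21.3% in the EB libraries. Had EB eCLIP-1 carried the shares of EB eCLIP-2, exons 6, 7 and 8 would have held 7.25, 5.07 and 6.52 tags at its depth. The lowest peak called anywhere in EB eCLIP-1 had 3 tags and the median peak had 5. Its peaks on exons 1 and 2 of Serbp1 had 15 and 9 tags, with scores of 99.63 and 77.83. On exon 8 in embryo eCLIP-1, 8 tags gave a score of 54.47, close to the caller's threshold of 50. Whether such counts would have been called in EB eCLIP-1 was not tested. Over all merged eCLIP regions, in genes or not, 80 of 421 called in the other 3 eCLIP libraries were not called in EB eCLIP-1 (19.0%). For each of the other libraries this was 10.0% to 12.3%. For Serbp1, 3 of 5 such regions were not called in EB eCLIP-1.

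Summed over the gene, the peaks held 70 and 63 tags in embryo eCLIP-1 and eCLIP-2, against 24 and 61 tags in EB eCLIP-1 and eCLIP-2. As shares, these were 511 RPM (95% exact Clopper-Pearson interval 399 to 646) and 340 RPM (262 to 435) in embryos, against 145 RPM (92.9 to 216) and 267 RPM (204 to 343) in EBs. The intervals cover counting error alone. Both embryo libraries were above both EB libraries, and the intervals of embryo eCLIP-2 and EB eCLIP-2 overlapped. The means were 426 ± 121 RPM in embryos and 206 ± 86.3 RPM in EBs (SD, n = 2 each), a ratio of 2.07 or 1.05 on the log2 scale.

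The same order was common among all genes. Of the 266 genes with a peak in all 4 eCLIP libraries, 60.2% had both embryo shares above both EB shares and 8.65% had both below. Serbp1, one of the genes with both above, was chosen with its peaks and tags in these libraries known. The median ratio over the 266 genes was 1.57, or 0.65 on the log2 scale, so Serbp1 was 1.32 times the median, and 77 of the genes (28.9%) had a larger ratio. With 2 libraries against 2, the smallest two-sided exact permutation p is 0.333, so this test could not show a difference between the tissues at this number of libraries.

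**Figure D3:**
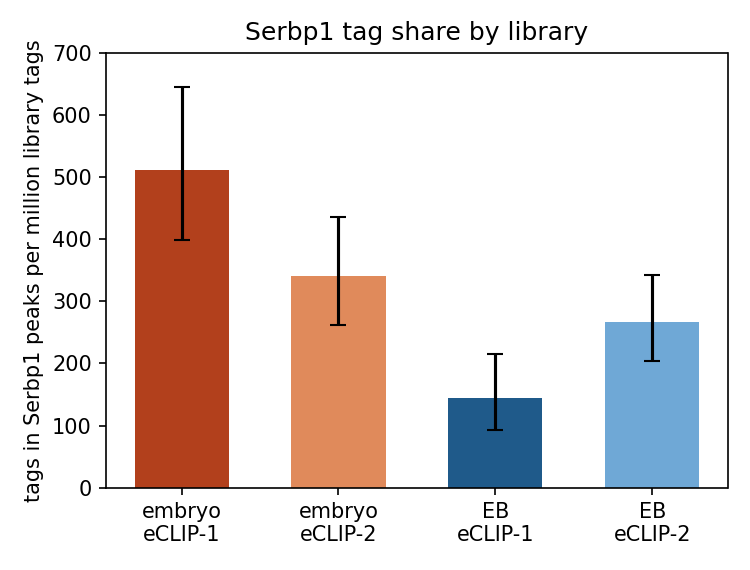
Tags in all Serbp1 peaks in RPM (bars) in the 4 eCLIP libraries, with 95% exact intervals for counting error. The embryo libraries were at 511 and 340 RPM and the EB libraries at 145 and 267 RPM.

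The sum also moved with how much of the gene was called. The peaks covered 2619 and 2357 bases in embryos, against 813 and 1745 bases in EBs. Per kb covered, the shares were 195 and 144 RPM in embryos, against 178 and 153 RPM in EBs. On this scale the tissues overlapped, with a ratio of the means of 1.02. An uncalled region drops out of both the tags and the bases, so this scale does not measure how many regions were called. On the regions called in all 4 eCLIP libraries alone, exons 1 and 2, the embryo over EB ratio was 1.29. Mean tags per peak were 11.7 and 12.6 in embryos, against 12 and 8.71 in EBs.

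**Figure D4:**
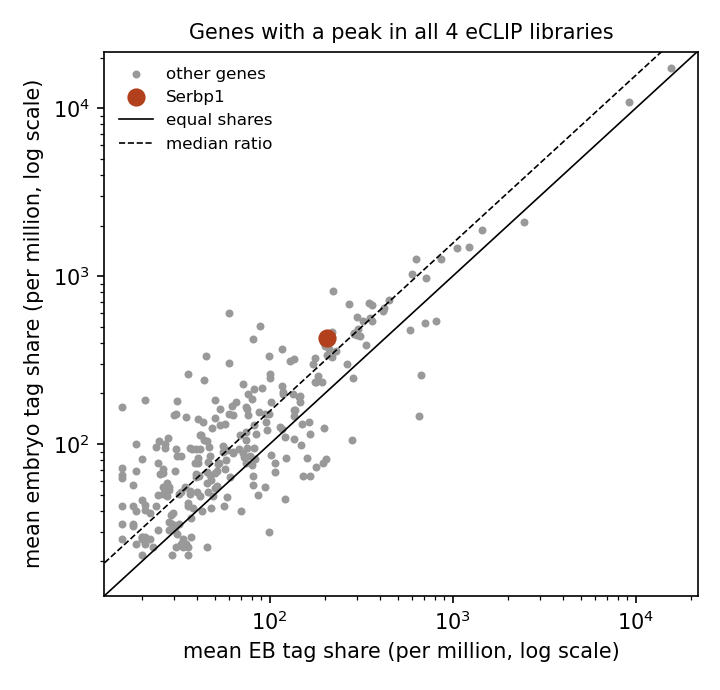
Mean embryo share against mean EB share (RPM, log axes) for the 266 genes with a peak in all 4 eCLIP libraries; the solid line marks equal shares and the dashed line the median ratio of 1.57. Serbp1, at 426 RPM in embryos and 206 RPM in EBs, is close to the dashed line.

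Serbp1 was among the genes with many tags, and in 3 of the 4 eCLIP libraries among those with the most separate peaks. By tags it was 35th of 1006 genes with a peak in embryo eCLIP-1 and 47th of 877 in embryo eCLIP-2, against 103rd of 938 and 41st of 1337 in the EB libraries. By the number of peaks it was 3rd and 5th in the embryo libraries, against 15th and 2nd in the EB libraries. These ranks are tied. Counting Serbp1, 6 and 6 genes had at least as many peaks in the embryo libraries, against 108 and 4 in the EB libraries. The rank in EB eCLIP-1 rests on 2 peaks. Of 820 genes with a region called in at least 2 eCLIP libraries, 3 had more such regions than the 6 of Serbp1, and the median gene had 1.

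Single Serbp1 peaks were small in absolute tags. Their tags ran between 6 and 15, their scores between 53.28 and 106.59 and their folds between 9.46 and 32.89, where the score is minus 10 times the log10 of the caller's p and both are set against the background of the same library. The strongest by score was on exon 7 in embryo eCLIP-2, at 106.59, and the weakest was on exon 7 in EB eCLIP-2, at 53.28, close to the caller's threshold of 50. All 20 had at least the median number of tags of their library's peaks, and 15 had at least its median score.

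Peaks on internal exons reached into the neighbouring introns, on the 5′ side further in the embryo libraries than in EB eCLIP-2. For peaks on a single internal exon, the 5′ edge lay 115 to 144 nt before the exon in embryo eCLIP-1 and 87 to 146 nt in embryo eCLIP-2, against 96 nt in EB eCLIP-1 and between 20 nt inside the exon and 25 nt before it in EB eCLIP-2. The 3′ edge lay 43 to 68 nt and 49 to 366 nt past the exon in the embryo libraries, against 36 nt in EB eCLIP-1 and 31 to 70 nt in EB eCLIP-2. Over all Serbp1 peaks, 60.4% and 57.1% of peak bases were exonic in embryos, against 83.8% and 78.2% in EBs, and intron bases made up the rest. The 3 libraries with a fragment size of 200 had the more distant 5′ edges, and the part of fragment size in this was not tested. EB eCLIP-1, with the same fragment size as the embryo libraries, had the highest exonic share, but over 2 peaks, of which that on exon 1 was 100% exonic. Its peak on exon 2 was 53.4% exonic, against 44.7% and 51.2% in the embryo libraries and 77.4% in EB eCLIP-2. The summits of the libraries with a fragment size of 200 were also moved by 62 nt toward the 3′ end, to allow for the difference in fragment size. Peaks carry no strand, so this direction was a choice, and the opposite move was not tried. After the move, 17 of the 20 summits were in coding exons. Those of both embryo peaks on exon 8 were then in the 3′ UTR, like that of EB eCLIP-2.

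The coding sequence of Serbp1 was rich in purines. A or G made up 61.3% of its 1221 bases, compared with a median of 51.7% over the longest coding sequences of 21938 protein-coding genes, of which 2.63% had more. Exons 6 and 2 had the most, at 70.2% and 68.9%, and the coding part of exon 8 had the least, at 40.7%. The purine hexamer GANGAN, with N again A or G, counted with overlaps on the strand of the gene, occurred 10 times in the spliced coding sequence. Per base, 9.47% of the genes had more.

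In windows of 200 nt centred on the summit and read on the gene's strand, this purine hexamer was present in 13 of 20 Serbp1 windows (65.0%), compared with 40.7% of 5177 windows of all genes. Of the 13 windows, 4 were on exon 2, 3 on exon 6, 3 on exon 7, 2 on exon 1 and 1 on exon 5, and the capitals in the sequences above mark the matches in exons 2, 6 and 7. GCAGCA was present in 3 of the 20 windows, against 11.3% of all windows, and with moved summits in 5 of the 20, against 11.3% again, while the pyrimidine motif CTCCTCC was in 0 of them and in 6.08% of all windows. A second pyrimidine motif, CTTCTTC, was also in 0 of them and in 2.26% of all windows. Matches were sought on the strand of the gene alone, and overlapping matches were counted. Windows of different libraries over one exon share most of their sequence, so they are not independent, and a match is a description of the letters and not a binding site.

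Reads with up to 30 placements were kept by the authors, so copies of the gene were searched for. The spliced transcript Serbp1-203 of 1617 bases had 2 partial matches elsewhere in the genome, of which 0 reached 90% identity, and 0 deposited peaks lay on them. Peaks carry no strand, so reads from the gene's own strand and from antisense RNA cannot be told apart.

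The protein-coding genes with shares most like those of Serbp1 across the 4 eCLIP libraries were Itga9, an integrin subunit, Il31ra, a cytokine receptor, and Atf2, a transcription factor, at Euclidean distances of 0.52, 0.54 and 0.72 on the log2 scale among 221 genes compared. Itga9 was at 402 and 362 RPM in embryos, against 175 and 223 RPM in EBs. Each of these genes had its tags in 1 or 2 peaks per eCLIP library and had 2 input peaks. Serbp1 had 6 and 5 peaks in the embryo libraries, against 2 and 7 in the EB libraries, and no input peak. Among the 113 compared genes without an input peak, a choice made after the values were seen, the nearest were Hspa8, a chaperone, Hist1h1a, a linker histone, and Ptma, prothymosin alpha, at larger distances of 1.43, 1.47 and 1.61. In EB eCLIP-2, Hspa8 had 4 peaks, Ptma 3 and Hist1h1a 1.

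Other transcripts of mRNA- and ribosome-bound proteins were compared by a list of 20 genes. Of these, 15 had a peak in any eCLIP library, 6 had one in all 4 and 5 had none, and 5 of the 20 had an input peak. Over all 21924 protein-coding genes, 10.0% had a peak in any eCLIP library, 1.01% in all 4 and 7.08% in an input. Among the 6, both embryo shares were above both EB shares for 3 and below for 1, beside 60.2% and 8.65% of the 266 genes with a peak in all 4. Ybx1, a cold-shock domain mRNA packaging protein, was at 679 and 400 RPM in embryos, against 338 and 311 RPM in EBs, and had a peak in each input. Eef2, an elongation factor found with SERBP1 on idle ribosomes, was at 183 and 340 RPM in embryos, against 157 and 43.8 RPM in EBs.

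Caprin1, a stress granule protein, was at 161 and 200 RPM in embryos, against 36.2 and 26.3 RPM in EBs. The opposite order was seen for Pabpc1, the cytoplasmic poly(A)-binding protein, at 270 and 248 RPM in embryos, against 767 and 574 RPM in EBs, with a peak in each input. Rack1, a ribosomal scaffold protein, was at 43.8 and 91.8 RPM in embryos, against 78.5 and 136 RPM in EBs, and its tissues overlapped. Habp4, the paralog of Serbp1, had no deposited peak in any library.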

How the data were processed

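STRAP eCLIP peaks were read from 6 deposited lists, 1 per library (4 eCLIP, 2 inputs), grouped by the labels. The submitters' processing notes name bcl2fastq 2.18.0.12, cutadapt, STAR 2.5.2b and MACS 1.4.2, with mm10. The authors removed repeat reads, allowed up to 30 placements of a read, removed duplicates and called each library by itself: the headers name no control and give a p of 1e-05 and a local background of 10000 bp, whereas the methods describe larger peak sets called against input, which were not used here, so a region without a called peak refers to these lists alone. Each peak carries 3 deposited values: tags, a count of reads made by the authors and not scaled; a score, minus 10 times the log10 of p as deposited; and a fold, the deposited ratio to the library's own background.

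Peaks overlapping Serbp1 by 1 bp or more were taken, and exons and classes came from Gencode M21 on GRCm38 (the authors aligned with an earlier Gencode release). For all other genes a peak went to the gene at its summit, protein-coding first, then the longest. Shares are peak tags over library tags, with 95% exact intervals. Sequences were read from the GRCm38 reference of RefSeq; copies were searched with BLAST+ 2.17.0, and values were computed with Python 3.11.15, numpy 2.4.6, pandas 2.3.3 and scipy 1.17.1. The steps were tested on simulated data. Low counts limit precision: the median eCLIP peak has 4 to 7 tags.

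The gene, the lists and the rules were chosen with earlier results of these data known. Genes were named by rule: Serbp1, the 3 protein-coding genes with the closest log2 shares, and up to 6 list members with peaks in most eCLIP libraries. The values of 1 list member and some exon sequences are not reported here. Alternatives tried were filters on score and fold, another denominator, other peak classes, moved summits, shares per kb of called peak, and each eCLIP replicate left out.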

Additional observations from a re-analysis of the deposited data

How the results depend on the processing

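The embryo over EB ratio of the Serbp1 tag share was above 1 under every alternative, but close to 1 per kb of called peak. That scale, chosen after seeing the data, gave 170 RPM per kb in embryos and 166 RPM per kb in EBs (log2 ratio 0.035). Called peaks were shorter in EB eCLIP-2, the library with a fragment size of 76, and the part of this in the ratio was not tested. The other alternatives gave log2 ratios between 0.36 and 1.55. The lowest of these came from the regions called in all 4 eCLIP libraries alone, exons 1 and 2, also chosen after seeing the data, at 155 RPM (tags per 1000000 library tags) in embryos and 121 RPM in EBs, a ratio of 1.29. Without EB eCLIP-2 the ratio was 2.94, and leaving out each eCLIP library in turn gave log2 values of 0.67 to 1.55, embryo shares of 340 to 511 and EB shares of 145 to 267 RPM. Of the 20 peaks, 2 had a score of at least 100, on exon 7 in embryo eCLIP-2 (81.0 RPM) and on exon 6 in EB eCLIP-2 (43.8 RPM). With the other library of each tissue counted as 0, this left means of 40.5 RPM in embryos and 21.9 RPM in EBs. The ratio under this filter thus sets 1 peak against 1 peak on another exon. As shares of the tags in all peaks of a library, Serbp1 held 2862 tags per 1000000 in embryos and 1875 in EBs, a log2 ratio of 0.61. The share of Serbp1 tags in peaks with a coding-exon summit was 100% in embryos and 92.6% in EBs. With moved summits it was 84.8% in embryos, and with each peak classed by the feature that covered most of its bases it was 27.4% in embryos, where introns next to the exons covered more. Filters on fold and on the summit's position changed 0 peaks. No paired analysis was possible because the values come from no test, and shared replicate numbers pair no embryo library with an EB library. Depth is 1 limit: each region rests on 6 to 15 tags per library, and uncalled regions have no deposited count.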
